A study of Rattus norvegicus with 30 samples.

Results

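Adrenal transcripts of the corticotropin (ACTH) receptor gene Mc2r and of 4 genes that act on corticosterone or beside its synthesis, Cyp11b1, Fdx1, Akr1b7 and Hsd11b2, were followed in intact, gonadectomized and hormone-replaced rats. A gene entered by its exact symbol in the array annotation, with the brightest probe row where a symbol had several. Each of the 5 had 1 row, and together they made up 5 of the 14557 genes tested. The animals were adult Wistar rats, 12 weeks old, with 5 rats and 5 arrays in each of 6 groups. Orchiectomized males received subcutaneous depot testosterone, 5 mg per 100 g of body weight (ORX + T), or no hormone (ORX), and control males were sham operated. Ovariectomized females received depot estradiol, 0.5 mg per 100 g (OVX + E), or no hormone (OVX), and control females were sham operated. The hormones were injected on day 14 after surgery, and adrenals were taken 4 weeks after surgery. The labels do not say whether rats without hormone received an injection of vehicle. All animals had been through surgery under ketamine and xylazine anesthesia, and whole glands were extracted.

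Corticotropin from the pituitary binds Mc2r on cells of the zona fasciculata and, through cyclic AMP, drives the conversion of cholesterol to corticosterone. Cyp11a1 cleaves the cholesterol side chain in mitochondria, Hsd3b and Cyp21a1 carry out intermediate steps, and Cyp11b1, the mitochondrial 11beta-hydroxylase, completes corticosterone. Fdx1, adrenodoxin, passes electrons to the mitochondrial cytochromes P450 of this route. The remaining members are not steps of the synthesis. Hsd11b2 oxidizes corticosterone to inactive 11-dehydrocorticosterone, and Akr1b7 is an aldo-keto reductase that, as known from the mouse adrenal, is under the control of corticotropin and reduces an aldehyde released by side-chain cleavage.

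The promoter windows show the sequence next to the start of transcription for Mc2r and for the members that moved the other way. A window of 300 bases, 250 before and 50 after the start as placed there, was given for 3 of the 5 genes in the RefSeq-derived table for the GRCr8 assembly. Cyp11b1 and Hsd11b2 are named only. The windows lie at chr18:64290714-64291013 on the minus strand for Mc2r, chr8:61183596-61183895 on the minus strand for Fdx1 and chr4:64043720-64044019 on the plus strand for Akr1b7. Each is written 5′ to 3′ along the gene, and capitals mark a match, on either strand, to AGGTCA, a core bound by nuclear receptors such as SF-1, or to AGAACA, a core bound by androgen and glucocorticoid receptors.
Mc2r: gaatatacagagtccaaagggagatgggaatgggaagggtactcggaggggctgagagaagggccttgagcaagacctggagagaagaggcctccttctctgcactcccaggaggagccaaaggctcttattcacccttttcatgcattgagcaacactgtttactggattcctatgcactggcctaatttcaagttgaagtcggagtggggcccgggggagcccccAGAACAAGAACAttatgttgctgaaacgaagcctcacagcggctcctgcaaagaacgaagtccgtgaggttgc
Fdx1: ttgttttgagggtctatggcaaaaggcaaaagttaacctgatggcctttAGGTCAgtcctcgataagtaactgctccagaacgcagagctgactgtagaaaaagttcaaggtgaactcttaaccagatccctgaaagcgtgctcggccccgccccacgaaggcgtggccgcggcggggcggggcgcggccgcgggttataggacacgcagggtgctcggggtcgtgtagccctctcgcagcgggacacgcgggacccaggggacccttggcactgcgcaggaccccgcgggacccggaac
Akr1b7: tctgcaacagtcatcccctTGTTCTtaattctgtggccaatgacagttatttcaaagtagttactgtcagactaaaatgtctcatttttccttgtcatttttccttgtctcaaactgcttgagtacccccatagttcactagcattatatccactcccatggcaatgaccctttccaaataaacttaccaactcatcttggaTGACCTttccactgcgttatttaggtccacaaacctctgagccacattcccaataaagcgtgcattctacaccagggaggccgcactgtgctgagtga
In the Mc2r window AGAACA stood in 2 adjoining copies on the gene's strand, starting 23 and 17 bases before the start, and AGGTCA was not found. The Fdx1 window held 1 AGGTCA, 201 bases before the start. The Akr1b7 window held AGGTCA 48 bases and AGAACA 231 bases before the start, both on the opposite strand, where they read TGACCT and TGTTCT. Of all 33465 windows of this length, 16.2% held AGGTCA and 20.7% held AGAACA. These matches describe letters and not bound sites.

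Signals were deposited as log2 values, normalized between arrays by RMA, with array medians of 4.36 to 4.63. All 5 genes were bright. Mc2r lay between percentiles 97.1 and 99.4 of the rows on its arrays, Cyp11b1, Fdx1 and Akr1b7 at or above percentile 99.0, and Hsd11b2 between 92.5 and 97.2. The log2 values of an array had an SD of 1.67 to 1.75 on 20 arrays and of 1.43 to 1.60 on the other 10, called narrow here. The narrow arrays numbered 2 in ORX + T, 2 in ORX, 1 in control males, 2 in OVX + E, 2 in OVX and 1 in control females. The 8 measured markers of chromaffin cells averaged 6.94 to 8.06 per array and the 9 of the zona glomerulosa 6.22 to 7.46. By the same measure, 8 fat cell markers averaged only 4.05 to 4.43 and 9 kidney tubule markers 3.90 to 4.34, near the array medians. In whole glands, fewer cells of a type and less RNA per cell cannot be told apart.

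**Figure D1:**
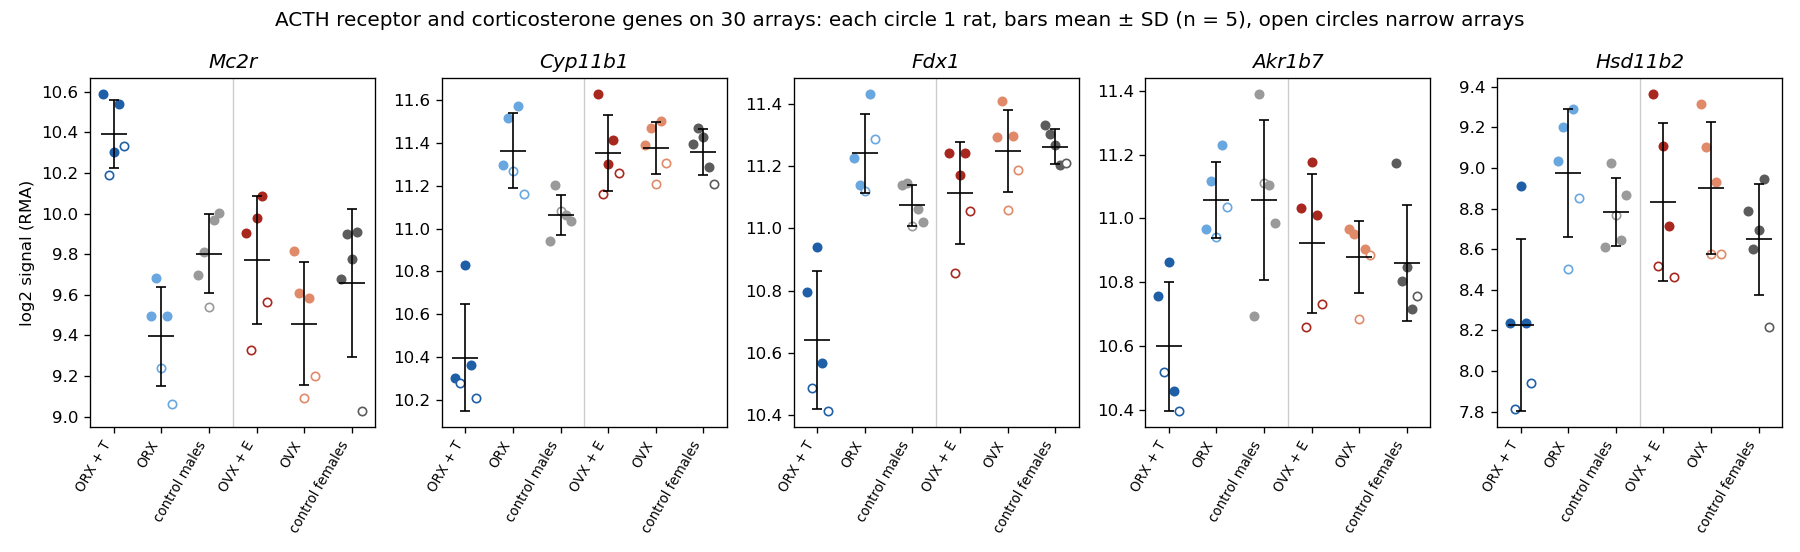
Log2 signal of Mc2r, Cyp11b1, Fdx1, Akr1b7 and Hsd11b2 (vertical axes, separate for each gene) in ORX + T, ORX, control males, OVX + E, OVX and control females. Each circle is 1 rat, open circles are narrow arrays, and bars give mean ± SD of 5 rats; the ORX + T group has the highest mean for Mc2r and the lowest for the other genes.

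Testosterone replacement separated the 5 genes into 2 directions. Against ORX, Mc2r rose and Cyp11b1, Fdx1, Akr1b7 and Hsd11b2 fell in ORX + T adrenals. Thus 5 of 5 passed (adjusted p under 0.05 in limma), where 2.05% of all genes did, 1.37% upwards and 0.687% downwards. The 5 genes were chosen with earlier results of these data known, so their counts beside such shares are a description only. With each of 10 arrays left out in turn, the call held in 3 fits for Akr1b7 and in 2 for Hsd11b2. For 4 of the 5 the ORX + T and ORX values did not overlap, against 2.91% of all genes. None exceeded the 2-fold limit that the study sets for a changed gene beside an adjusted p under 0.05. Of all genes, 1.04% met both limits. At an unadjusted p under 0.05, 7.93% of all genes and the same 5 counted. The median log2 difference of the 5 was -0.60, beside -0.01 over all genes. Against control males, Cyp11b1 and Fdx1 fell and the other 3 did not pass, where 0.941% of all genes passed, 0.632% upwards and 0.309% downwards. The values of ORX + T and control males did not overlap for 3 of the 5, Mc2r, Cyp11b1 and Fdx1, against 2.34% of all genes, and all 5 had an unadjusted p under 0.05, against 5.16%. In the females, and in ORX against control males, none of the 5 passed.

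Mc2r measured 10.59, 10.19, 10.30, 10.54 and 10.33 in the ORX + T rats (log2, replicates 1 to 5). In ORX rats it measured 9.49, 9.68, 9.24, 9.50 and 9.06, and in control males 9.70, 9.81, 9.54, 9.97 and 10.00. Every ORX + T value thus lay above every ORX and every control value. The mean was 10.39 ± 0.17 in ORX + T, 9.39 ± 0.24 in ORX and 9.80 ± 0.19 in control males (SD, n = 5 each). The difference between ORX + T and ORX was 0.996 ± 0.17 (SE, adjusted p = 0.000496 in limma), a 1.99-fold rise with a 95% interval of 1.57 to 2.54-fold. Against control males the difference was 0.59 ± 0.17 and did not pass (adjusted p = 0.134), although the exact permutation test, two-sided, gave p = 0.00794, the smallest that 5 against 5 allows. That difference passed in 6 of 12 alternative settings, and its size stayed between 0.55 and 0.64 over the 12. Among the 6 were array weights, quantile normalization, the array SD and leaving out narrow arrays, where 3.18% to 6.07% of all genes passed. With 1 array left out it passed in 0 of 10 fits (adjusted p from 0.134 to 0.386 in limma). Between ORX and control males, Mc2r differed by -0.41 ± 0.17 with overlapping values (adjusted p = 0.901).

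In the females Mc2r varied more within groups. It measured 9.91, 9.33, 9.98, 10.09 and 9.57 in OVX + E rats, against 9.81, 9.61, 9.09, 9.59 and 9.20 in OVX rats. Control females had 9.68, 9.90, 9.78, 9.91 and 9.03. The groups overlapped, and in each the lowest values were those of the narrow arrays, as was the lowest value of each male group. OVX + E differed from OVX by 0.31 ± 0.17 (adjusted p = 0.563), with a 95% interval of -0.03 to 0.66. When array SD entered the fit as a covariate, this difference was 0.44 and passed (adjusted p = 0.000404), but 14.6% of all genes passed in that fit. OVX differed from control females by -0.20 ± 0.17, and OVX + E from control females by 0.11 ± 0.17.

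Cyp11b1 showed the reverse pattern in males. It measured 10.30, 10.28, 10.83, 10.36 and 10.21 in ORX + T rats. ORX rats had 11.30, 11.52, 11.27, 11.57 and 11.16, and control males had 10.94, 11.20, 11.08, 11.06 and 11.03. All ORX + T values lay under all others of the series, and the highest of them was the 10.83 of replicate 3. Means were 10.40 ± 0.25 in ORX + T, 11.36 ± 0.17 in ORX and 11.07 ± 0.09 in control males (SD, n = 5 each). Cyp11b1 fell 1.95-fold in ORX + T against ORX (log2 difference -0.97 ± 0.11, adjusted p = 7.24e-07 in limma) and 1.59-fold against control males (-0.67 ± 0.11, adjusted p = 0.000549). Both calls held in 12 of 12 alternative settings and with each of 10 arrays left out in turn. ORX adrenals averaged 0.30 ± 0.11 above control males, which did not pass (adjusted p = 0.746), with overlapping values.

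Female Cyp11b1 levels lay close together. Values were 11.63, 11.16, 11.30, 11.42 and 11.26 in OVX + E, against 11.39, 11.47, 11.21, 11.50 and 11.31 in OVX. Control females had 11.39, 11.47, 11.43, 11.29 and 11.21. The 3 groups covered nearly the same range, and OVX + E differed from OVX by -0.02 ± 0.11, with a 95% interval of -0.24 to 0.20. All control females stood above all control males (11.36 ± 0.11 and 11.07 ± 0.09, SD, n = 5 each), but this difference of 0.29 ± 0.11 did not pass (adjusted p = 0.654). Rat Cyp11b1 has the close relatives Cyp11b2 and Cyp11b3, so some of its probes may read more than 1 transcript, and a row annotated to both Cyp11b3 and Cyp11b1 was not used.

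Fdx1 followed Cyp11b1 with smaller steps. It measured 10.80, 10.49, 10.94, 10.57 and 10.41 in ORX + T rats, 11.23, 11.14, 11.12, 11.43 and 11.29 in ORX rats, and 11.14, 11.15, 11.01, 11.06 and 11.02 in control males. ORX + T stood below both other male groups with no overlap. Fdx1 fell by 0.60 ± 0.09 on the log2 scale against ORX (adjusted p = 0.000172 in limma), a 1.51-fold fall, and by 0.43 ± 0.09 against control males (adjusted p = 0.0144). The call against ORX held in 12 of 12 alternative settings, and that against control males in 9. Female means were 11.11 ± 0.16 in OVX + E, 11.25 ± 0.13 in OVX and 11.26 ± 0.06 in control females (SD, n = 5 each). OVX + E differed from OVX by -0.14 ± 0.09, with a 95% interval of -0.33 to 0.06.

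Akr1b7 measured 10.76, 10.52, 10.86, 10.46 and 10.40 in ORX + T rats, against 10.97, 11.12, 10.94, 11.23 and 11.04 in ORX rats. Control males spread widely, with 10.69, 11.39, 11.11, 11.10 and 10.99. ORX + T lay wholly below ORX and overlapped control males through their replicate 1. Akr1b7 fell by 0.46 ± 0.12 against ORX (log2, adjusted p = 0.0383 in limma), a 1.38-fold fall, and differed from control males by -0.46 ± 0.12 (adjusted p = 0.0718). ORX and control males had the same mean of 11.06. The call against ORX was lost in 5 of 12 alternative settings and with 7 of 10 arrays left out, at adjusted p up to 0.315. Female means were 10.92 ± 0.22 in OVX + E, 10.88 ± 0.11 in OVX and 10.86 ± 0.18 in control females (SD, n = 5 each). OVX + E differed from OVX by 0.04 ± 0.12.

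Hsd11b2, the dimmest of the 5, measured 8.24, 7.81, 8.91, 8.24 and 7.94 in ORX + T rats. ORX rats had 9.03, 9.20, 8.50, 9.29 and 8.85, and control males had 8.61, 9.02, 8.77, 8.65 and 8.87. ORX + T overlapped both groups through replicate 3 alone. Hsd11b2 fell by 0.75 ± 0.20 against ORX (log2, adjusted p = 0.0445 in limma, exact permutation p = 0.0238), a 1.68-fold fall. Against control males the difference was -0.56 ± 0.20 (adjusted p = 0.417). The call against ORX was lost in 5 of 12 alternative settings and with 8 of 10 arrays left out, at adjusted p up to 0.230. Female means were 8.83 ± 0.39 in OVX + E, 8.90 ± 0.33 in OVX and 8.65 ± 0.27 in control females (SD, n = 5 each), and OVX + E differed from OVX by -0.07 ± 0.20.

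**Figure D2:**
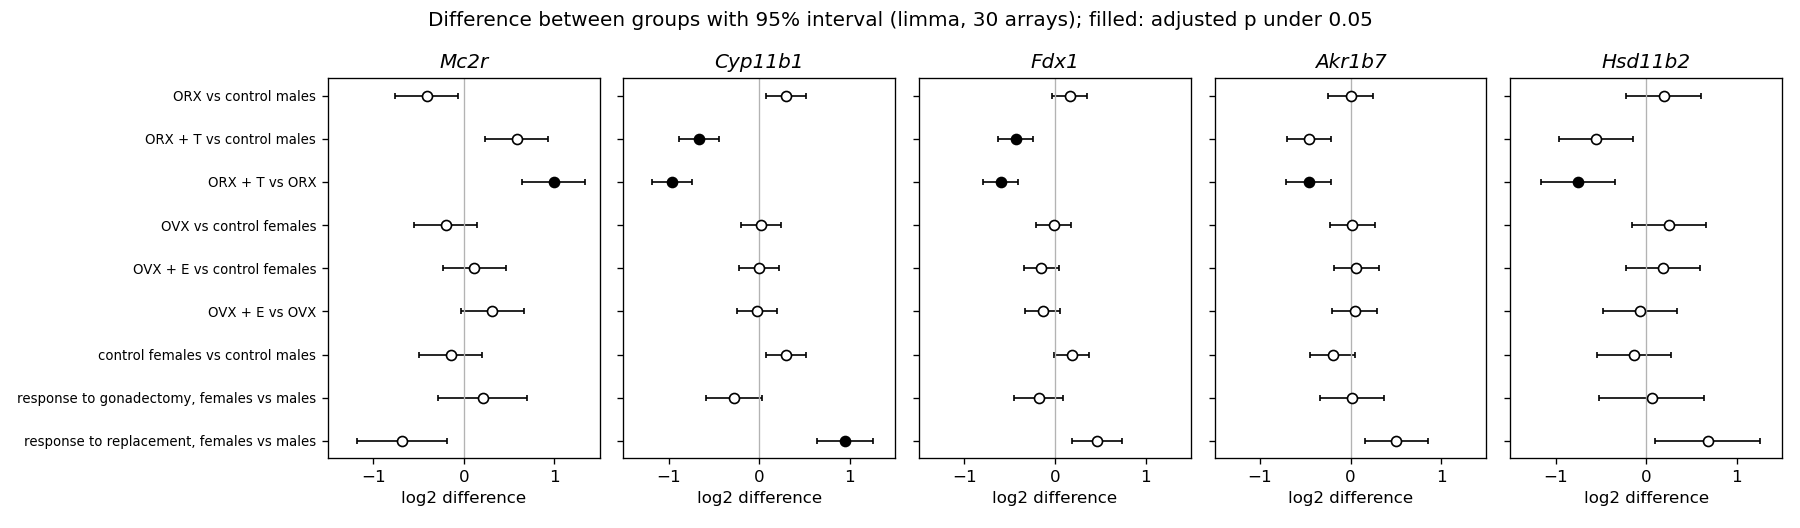
Log2 differences (horizontal axes) of each gene in 9 comparisons, with 95% intervals from limma on 30 arrays; filled points have an adjusted p under 0.05. ORX + T against ORX is filled for all 5 genes, from 0.996 for Mc2r to -0.97 for Cyp11b1, and ORX + T against control males for Cyp11b1 and Fdx1.

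Removal of the gonads without replacement left the 5 genes without a passing change in either sex. In ORX against control males 0 of 5 passed, where 0.055% of all genes did. At an unadjusted p under 0.05, Mc2r and Cyp11b1 counted, 2 of 5 against 4.72% of all genes. In OVX against control females 0 of 5 passed (0.165% of all genes), as in OVX + E against control females (0.234%) and OVX + E against OVX (1.69%), and at an unadjusted p under 0.05 the counts were 0 of 5 as well, against 3.93%, 4.65% and 10.3% of all genes in that order. Between control females and control males 0 of 5 passed (0.433% of all genes), and 1, Cyp11b1, had an unadjusted p under 0.05 (4.01% of all genes). The groups of intact animals did not overlap for Cyp11b1 and Fdx1, 2 of 5 genes against 1.02% of all. The spread sets what these counts could show. The pooled SD within groups was 0.14 for Fdx1, 0.16 for Cyp11b1, 0.19 for Akr1b7, 0.27 for Mc2r and 0.33 for Hsd11b2, and the median over all genes was 0.25.

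The difference between the response to estradiol in OVX females and the response to testosterone in ORX males was tested directly, since both responses have their own gonadectomized group. For Cyp11b1 the female minus male difference was 0.94 ± 0.15 on the log2 scale (SE, adjusted p = 0.000437 in limma), made of -0.02 in females and -0.97 in males. Thus 1 of 5 genes passed, where 1.57% of all genes did. The values for the others were -0.68 ± 0.24 for Mc2r (adjusted p = 0.261), 0.46 ± 0.13 for Fdx1 (adjusted p = 0.0899), 0.50 ± 0.17 for Akr1b7 (adjusted p = 0.218) and 0.68 ± 0.28 for Hsd11b2 (adjusted p = 0.454). All 5 had an unadjusted p under 0.05, against 7.99% of all genes. The response to gonadectomy did not pass for any of the 5 in this contrast between the sexes, where 0.00687% of all genes passed, nor did any have an unadjusted p under 0.05 (2.14% of all genes). Sex and hormone differ together in this design and cannot be told apart.

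Within each array, the log2 signal of Mc2r minus that of Cyp11b1 set the groups side by side. A difference of this kind takes out a shift of the whole array but not its SD, and the lowest value came from a narrow array in all groups but ORX + T. The numbers are differences between probe rows, so only their change between groups can be read. They were 0.28, -0.09, -0.53, 0.18 and 0.12 in ORX + T rats. In ORX rats they ran from -2.10 to -1.80 and in control males from -1.54 to -1.03. The 3 male groups were separate, with ORX + T highest and ORX lowest. In females they ran from -1.84 to -1.33 in OVX + E, from -2.12 to -1.58 in OVX and from -2.18 to -1.38 in control females, with overlap throughout. Since ORX + T was high for Mc2r and low for Cyp11b1, this is a second view of those values and no further test.

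**Figure D3:**
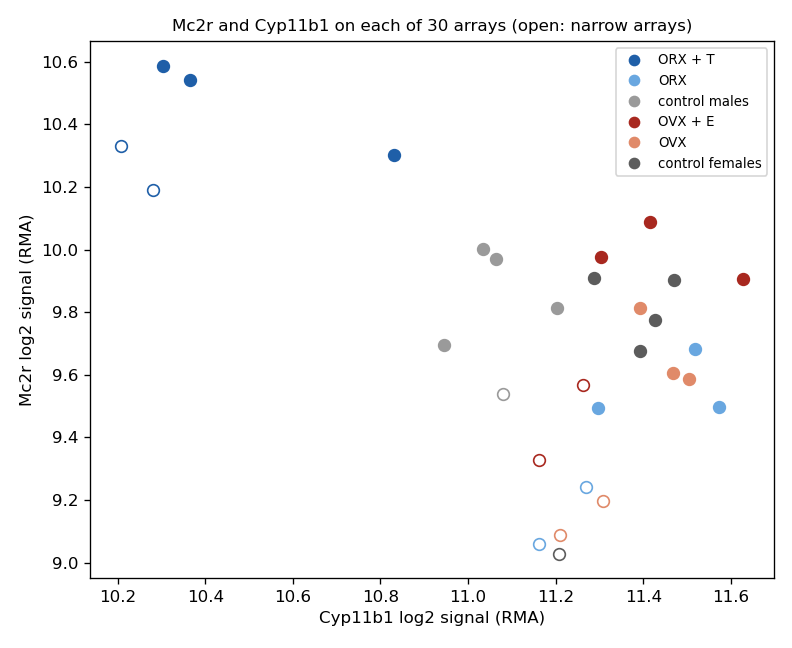
Log2 signal of Mc2r (vertical axis) against that of Cyp11b1 (horizontal axis) on each of 30 arrays, coloured by group, with open circles for narrow arrays. The 5 ORX + T arrays lie apart at the upper left, with Cyp11b1 between 10.21 and 10.83 and Mc2r between 10.19 and 10.59.

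By group mean, Mc2r ran from ORX + T through control males, OVX + E, control females and OVX down to ORX. Cyp11b1 ran from OVX through ORX, control females, OVX + E and control males down to ORX + T. Fdx1 ran from control females through OVX, ORX, OVX + E and control males to ORX + T, Akr1b7 from ORX through control males, OVX + E, OVX and control females to ORX + T, and Hsd11b2 from ORX through OVX, OVX + E, control males and control females to ORX + T. Of neighbours in these orders, only ORX + T and control males for Mc2r, Cyp11b1 and Fdx1 had no shared range. None of the 25 neighbouring pairs passed the exact permutation test after Benjamini-Hochberg adjustment over those pairs, the lowest adjusted p being 0.0661. By the exact permutation test, two-sided, the pairs without a shared range had p = 0.00794, the smallest that 5 against 5 allows. After adjustment this floor lay above 0.05, so the test could not decide whether these neighbours differ. In limma, ORX + T against control males passed for Cyp11b1 (adjusted p = 0.000549) and Fdx1 (adjusted p = 0.0144). For Mc2r it did not (adjusted p = 0.134 in limma). The orders rest on the same values.

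None of the measured steps before Cyp11b1 passed in ORX + T against ORX. Cyp11a1 had a mean log2 signal of 11.67 ± 0.09 in the ORX + T group and 11.69 ± 0.10 in the ORX group (SD of 5 rats each), a difference of -0.03 with a 95% interval of -0.21 to 0.15. Cyp21a1, the 21-hydroxylase, averaged 11.66 ± 0.09 in ORX + T and 11.74 ± 0.13 in ORX, a difference of -0.08 with an interval of -0.26 to 0.10. Both rows lay at the top of the scale, at percentile 99.9 or above after rounding on each array. Hsd3b2, a 3beta-hydroxysteroid dehydrogenase, differed by -0.04 with a wider interval of -0.45 to 0.38. Of 10 measured genes of corticosterone synthesis and its electron donors, 0 rose and 3 fell in ORX + T against ORX, namely Cyp11b1, Fdx1 and Cyb5a. Over all genes, 1.37% rose and 0.687% fell. The median log2 difference of the 10 was -0.06 beside -0.01 over all genes. Without the members Cyp11b1 and Fdx1, 1 of 8 fell, with a median of -0.04. Star, Fdxr and Hsd3b1 were not analysed here.

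Cyb5a, cytochrome b5, an electron carrier for microsomal cytochromes P450, measured 9.88, 9.85, 10.21, 9.92 and 9.89 in ORX + T rats. ORX rats had 10.38, 10.72, 10.22, 10.58 and 10.41, and control males had 10.39, 10.38, 10.36, 10.22 and 10.39. The ORX + T values lay under all values of both groups. Cyb5a fell by 0.51 ± 0.10 against ORX (log2, adjusted p = 0.00191 in limma) and by 0.40 ± 0.10 against control males (adjusted p = 0.0411). Soat1, which esterifies cholesterol for storage, fell by 0.39 ± 0.10 in ORX + T against ORX (adjusted p = 0.0282 in limma). Of 4 measured genes of cholesterol supply it alone passed, where 2.05% of all genes did. Tspo, a protein of the outer mitochondrial membrane, differed by 0.74 ± 0.25 and did not pass (adjusted p = 0.181).

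Beside Mc2r, no gene of the ACTH signal passed in ORX + T against ORX. Of 16 measured genes of the ACTH receptor and its signal, 1 rose, Mc2r itself, and 0 fell in ORX + T against ORX (median -0.05). Over all genes, 1.37% rose and 0.687% fell. Mrap, the accessory protein that brings Mc2r to the cell surface, differed by -0.35 ± 0.21 (adjusted p = 0.838). Prkaca, a catalytic subunit of protein kinase A, fell by 0.57 ± 0.13 in ORX + T against control males (8.54 ± 0.28 and 9.12 ± 0.11, SD, n = 5 each, adjusted p = 0.0274). Its difference against ORX was -0.49 ± 0.13 (adjusted p = 0.0501), which did not pass. Prkacb, the beta catalytic subunit, differed by -0.56 ± 0.21 against ORX (adjusted p = 0.270).

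**Figure D4:**
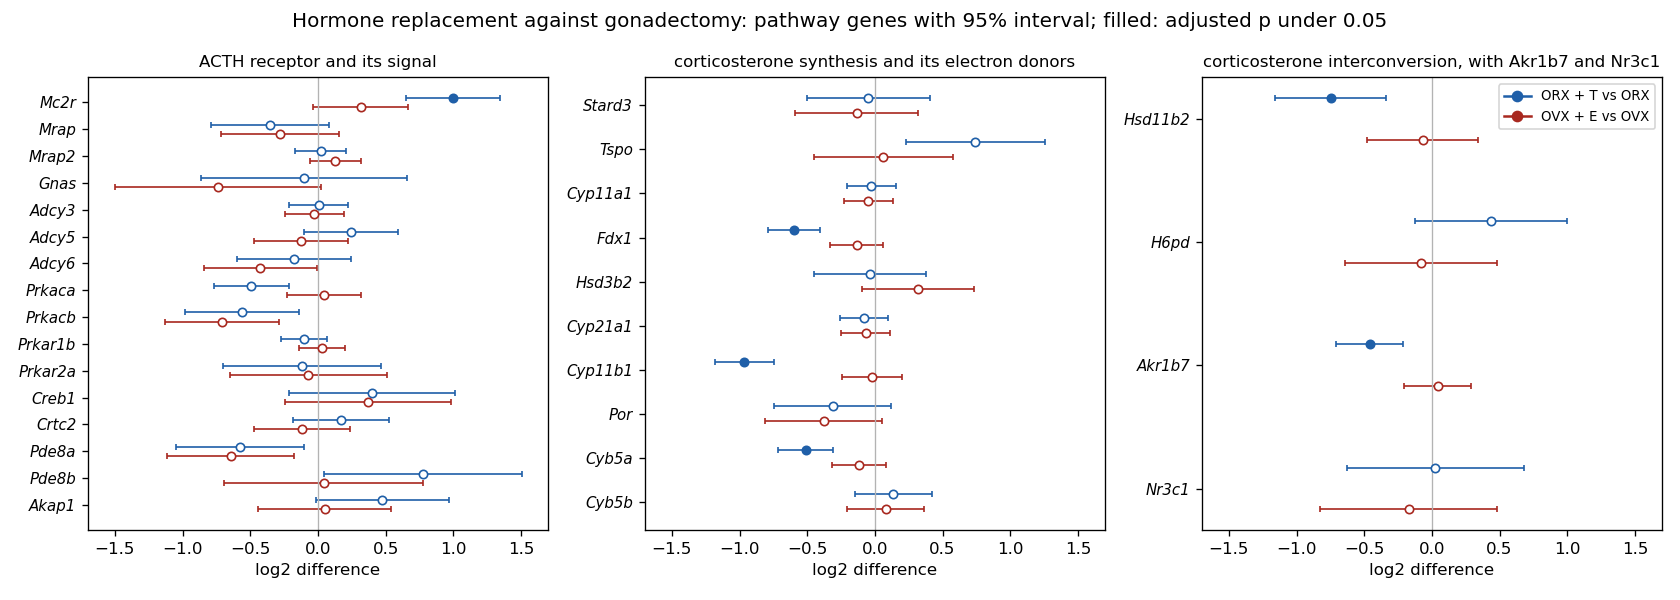
Log2 differences (horizontal axes) with 95% intervals for the measured genes of the ACTH signal, of corticosterone synthesis, and of interconversion together with Akr1b7 and the glucocorticoid receptor Nr3c1. Blue is ORX + T against ORX, red is OVX + E against OVX, and filled points have an adjusted p under 0.05; Mc2r is filled at 0.996 in blue, Cyp11b1, Fdx1, Cyb5a, Hsd11b2 and Akr1b7 are filled below 0, and no red point is filled.

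Of 8 measured relatives of the 5 genes, 1 rose in ORX + T against ORX, where 1.37% of all genes did. Mc5r, another melanocortin receptor, averaged 5.69 ± 0.26 in ORX + T, 4.95 ± 0.04 in ORX and 4.87 ± 0.10 in control males (SD, n = 5 each). It rose by 0.73 ± 0.10 against ORX (adjusted p = 1.36e-05 in limma) and by 0.81 ± 0.10 against control males (adjusted p = 6.92e-06). Akr1b8 and Akr1b10, aldo-keto reductases close to Akr1b7, differed by -0.23 ± 0.10 and 0.04 ± 0.18 and did not pass. Cyp11b2, aldosterone synthase, differed by -0.47 ± 0.39 in ORX + T against ORX. In OVX + E it fell by 1.68 ± 0.39 against OVX (7.92 ± 1.43 and 9.60 ± 0.27, adjusted p = 0.0167), where Cyp11b1 differed by -0.02. The OVX + E values of Cyp11b2 spread far more than those of OVX, while the SE rests on a spread pooled over all groups. Against control females Cyp11b2 differed by -1.48 in OVX + E and did not pass. Whether its call against OVX holds under the alternative settings was not examined.

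A few markers of other adrenal cells passed in the same comparison. Over all genes, 1.37% rose and 0.687% fell, with a median log2 difference of -0.01. Of 8 measured markers of capsule cells and fibroblasts, 8 were above 0 in ORX + T against ORX and 2 rose, Dcn by 0.38 ± 0.07 (adjusted p = 0.00155) and Postn by 0.78 ± 0.15 (adjusted p = 0.00200), both genes of the extracellular matrix. Their mean level was 6.05 to 6.72 in ORX + T rats and 5.62 to 6.17 in ORX rats. Of 9 zona glomerulosa markers, 7 were below 0, with mean levels of 6.48 to 7.06 in ORX + T and 6.72 to 7.46 in ORX, and 1 fell, the potassium channel gene Kcnk3 (-1.18 ± 0.23, adjusted p = 0.00286). Of 8 chromaffin cell markers, 6 were below 0 and 0 passed, with mean levels of 7.22 to 7.70 in ORX + T and 7.21 to 7.84 in ORX. Below 0 were also 3 of 5 endothelial and 5 of 6 macrophage markers, and 0 of either passed. The 3 measured zona fasciculata markers outside the 5 genes differed by -0.10 to -0.03, and 0 passed. The part of these cell types in the differences of Mc2r, Cyp11b1, Fdx1, Akr1b7 and Hsd11b2 was not tested.

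Removing the narrow arrays or entering the array SD in the fit kept the direction of all 5 differences between ORX + T and ORX. Without the 10 narrow arrays the log2 differences were 0.92 for Mc2r, -0.96 for Cyp11b1, -0.50 for Fdx1, -0.41 for Akr1b7 and -0.71 for Hsd11b2, and Akr1b7 no longer passed (adjusted p = 0.110). With the array SD as a covariate they were 0.94, -0.99, -0.62, -0.48 and -0.80 in the same order, and all passed, where 9.95% of all genes did. In that fit Mc2r (0.63, adjusted p = 3.19e-06), Akr1b7 (-0.44, adjusted p = 0.00555) and Hsd11b2 (-0.52, adjusted p = 0.0128) also passed against control males, where 5.54% of all genes passed.

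**Figure D5:**
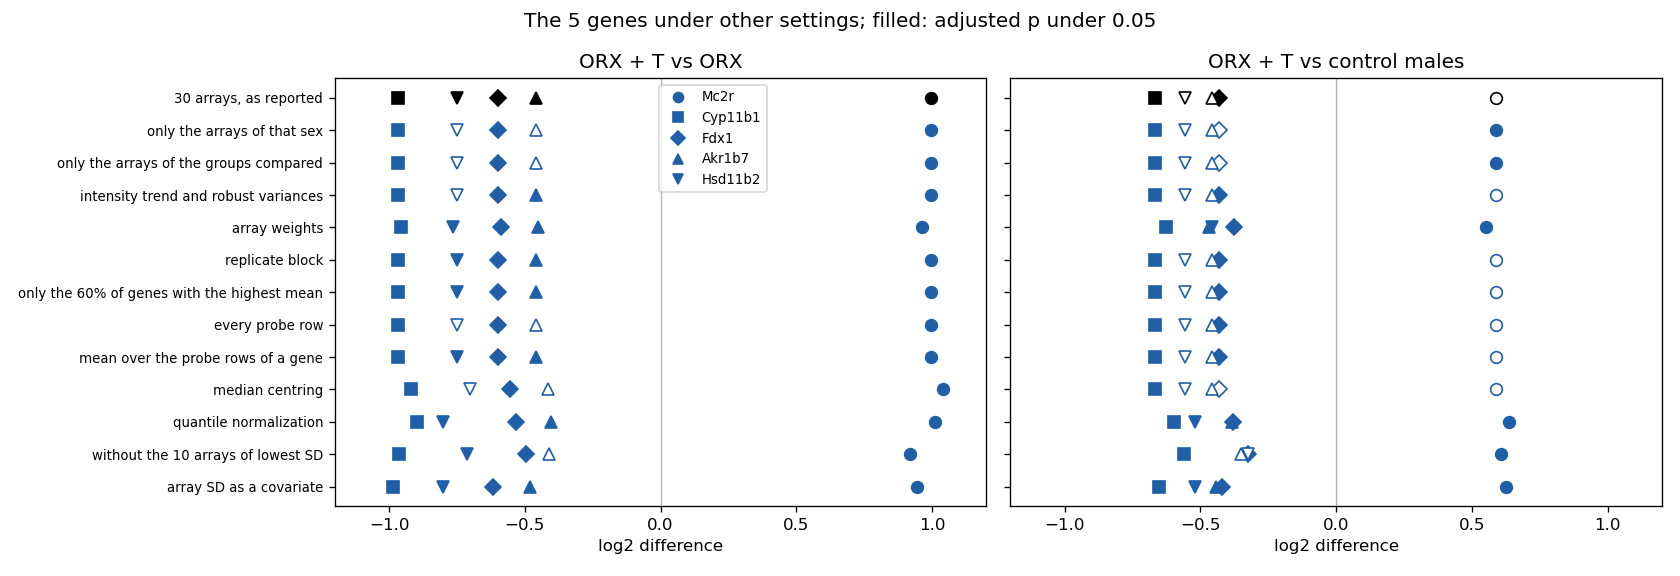
Log2 differences (horizontal axes) of the 5 genes in ORX + T against ORX (left) and against control males (right), as reported (black, upper row) and under 12 alternative settings (blue); filled symbols have an adjusted p under 0.05. Mc2r, Cyp11b1 and Fdx1 stay filled on the left in every row, from 0.92 to 1.04 for Mc2r, from -0.99 to -0.90 for Cyp11b1 and from -0.62 to -0.50 for Fdx1.

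The genes whose log2 values ran most like each member over the 30 arrays are given as a description, since all points share the arrays, their SD and the 6 groups. For Mc2r they were Dpy19l4 (Pearson's r = 0.94), Dhrs3 (0.94), Morf4l2 (0.93), Appbp2 (0.93) and Lifr (0.92). For Cyp11b1 they were Nrcam (0.93), Fdx1 (0.91), Tinagl1 (0.91), Zfp347 (0.89) and Hao2 (0.89), and for Fdx1 they were Tinagl1 (0.95), Zfp347 (0.92), Cyp11b1 (0.91), Lrp5 (0.90) and Hao2 (0.89). Fdx1 and Cyp11b1 thus stood in each other's lists. Akr1b7 was closest to Kdelr3 (0.78), Gramd1b (0.78), Hao2 (0.76), Arhgap32 (0.76) and Mlec (0.76), and Hsd11b2 to Mlec (0.90), Dlst (0.86), Frmd5 (0.85), Pld3 (0.85) and Anxa11 (0.85). With group means and the array SD taken out, Fdx1 and Cyp11b1 correlated at 0.51. Pairs among the members other than Mc2r ran from 0.41 (Fdx1 and Hsd11b2) to 0.60 (Cyp11b1 and Hsd11b2). Mc2r correlated at -0.43 with Fdx1, -0.25 with Cyp11b1, -0.20 with Hsd11b2 and -0.16 with Akr1b7. In these remainders the nearest gene was Lcmt1 for Mc2r (0.79), Fabp6 for Cyp11b1 (0.62), Usp32 for Fdx1 (0.75), Gramd1b for Akr1b7 (0.79) and Cacna1h for Hsd11b2 (0.72).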

How the data were processed

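RNA of whole adrenals from 30 rats was hybridized singly to Affymetrix Rat Gene 2.1 ST arrays. The authors applied RMA (affy package), which corrects background, normalizes and summarizes probes, and deposited log2 signals. Versions and genome build are not given in the sources used here, and which arrays were normalized together is not stated. Rows with exactly 1 gene symbol (14824 of 36685) were used, the brightest standing for its gene. Groups were compared by fitting a mean for each of the 6 groups to all arrays in limma 3.58.1 (R 4.3.3), with Benjamini-Hochberg adjustment over 14557 genes in each of 9 comparisons. A gene passed at an adjusted p under 0.05, and a fold above 2 is given beside it. Exact permutation tests of 5 against 5 values were two-sided. The 5 genes and the lists were chosen with earlier results of these data known. Named genes were the 5, list genes that passed in any comparison, up to 3 of lowest p in a list, and the 5 most correlated with each. The fit was also run on simulated data to check the code, and no result given here rests on that run.

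Alternatives were other sets of arrays, variance settings, array weights, a replicate block, filters, probe rows, normalizations, the array SD, and leaving out each array in turn. The number of arrays limits the precision.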

Additional observations from a re-analysis of the deposited data

Results flagged for a closer look

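In 3 of the 30 sets of 5 values (5 genes in 6 groups) 1 rat stood apart from the other 4 of its group, where chance gives about 1 in 20. Mc2r in control females measured 9.03 in replicate 5, a narrow array, and 9.68 to 9.91 in the other rats, a gap of 0.737 of the group's range. Cyp11b1 in ORX + T measured 10.83 in replicate 3 and 10.21 to 10.36 in the others, a gap of 0.749 of the range. Akr1b7 in control females measured 11.17 in replicate 1 and 10.72 to 10.85 in the others, a gap of 0.713 of the range.

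The response of Cyp11b1 to hormone replacement differed between females and males by 0.94 on the log2 scale (adjusted p = 0.000437 in limma). It passed in 11 of 11 alternative settings and with each of 20 arrays left out.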

How the results depend on the processing

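The calls of Mc2r, Cyp11b1 and Fdx1 in ORX + T against ORX held in 12 of 12 alternative settings and in 10 of 10 fits with 1 array left out. The number of the 5 genes that passed there was 5, and it was 3, with Akr1b7 and Hsd11b2 lost, with only the arrays of males, only the 10 arrays compared, every probe row or median centring, 0 with a fold above 2 added, and 3 to 5 with 1 array left out (3 without ORX replicates 1, 2, 4 or 5 or ORX + T replicates 2, 4 or 5). Against control males the count of 2 became 5 with array weights, quantile normalization or the array SD as a covariate, 3 without the 10 narrow arrays (Mc2r added), 1 with median centring and 0 with the fold limit. With only the arrays of males or only the 10 compared it was 2, but Mc2r passed in place of Fdx1. It was 1 to 3 with 1 array left out, 1 (Fdx1 lost) without control males replicate 2 or ORX + T replicates 2, 4 or 5, and 3 (Akr1b7 added) without control males replicate 1 or ORX + T replicate 3. In ORX against control males it was 2 with array weights and also 2 with array SD as a covariate, where 576 and 246 of all genes passed, against 8. In OVX + E against OVX it was 1, Mc2r, with quantile normalization and with the array SD, where 868 and 2126 genes passed, against 246, and between the controls it was 1, Cyp11b1, under each of array weights and array SD, where 933 and 666 genes passed, against 63. For the difference between the responses to replacement the count of 1 became 4 with array weights, 5 with quantile normalization, 5 with the array SD, 2 without the 10 narrow arrays, 0 with the fold limit, and 1 to 2 with 1 array left out (2 without OVX + E replicate 2 or ORX + T replicate 3). Of 25 neighbouring pairs in level 5 passed with quantile normalization, against 0. Over all 14557 genes, 299 passed in ORX + T against ORX, and 1326 with array weights, 854 with quantile normalization, 1448 with the array SD and 973 when narrow arrays were left out. Against control males these numbers were 137, and 883, 463, 807 and 561, and for the responses to replacement 229, and 726, 706, 1383 and 626. The cause was not tested.

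With the replicate number as a block the counts were the same: 5 of 5 in ORX + T against ORX, with Mc2r at an adjusted p of 0.000157. The numbers were not taken to pair rats, because the labels do not say that they do. Deviations of same-numbered arrays correlated above 0.1 in 48 of 75 pairs (-0.76 to 0.87). This held in all 15 pairs of replicate 4 (0.37 to 0.67) but in 6 to 10 of 15 for the other numbers. Of 30 arrays, 10 correlated best with their own number. All narrow arrays had replicate number 2, 3 or 5, so these correlations cannot separate pairing from array SD. Of 45 differences, 17 were under 1 SE. Their sign changed in 59 of 416 fits, and 0 of these fits passed.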

Other observations

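Nr4a1 and Nr4a2, nuclear receptor genes that respond quickly to corticotropin in adrenal cells, passed in comparisons between groups where none of the 5 genes did. Of 9 measured transcription factors of steroidogenic cells, these 2 rose in control females against control males, where 0.433% of all genes passed. In OVX + E against OVX 1 of the 9 fell, Nr4a2, where 1.69% of all genes passed. Whether these calls hold under the alternative settings was not examined. In OVX + E, Nr4a2 fell against OVX (log2 signal 8.22 ± 0.54 and 10.31 ± 0.18, SD, n = 5 each, adjusted p = 3.01e-05 in limma), and Nr4a1 differed by -1.18 ± 0.34 (adjusted p = 0.0768). Control females stood above control males for Nr4a1 (9.77 ± 0.21 and 8.15 ± 0.82, adjusted p = 0.0179) and for Nr4a2 (9.45 ± 0.40 and 8.24 ± 0.62, adjusted p = 0.0499). In ORX + T against ORX, Nr4a2 differed by 0.86 ± 0.28 and did not pass (adjusted p = 0.165). The response of Nr4a2 to replacement differed between females and males by -2.96 (adjusted p = 5.84e-05), a contrast that Cyp11b1 passed as well. Of all genes, 1.57% passed it.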
